A study of Mus musculus with 12 samples.

Results

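The collagen genes are the genes whose symbol in the array's platform annotation has the form Col, a number, a and a number. There were 42 of them among 18193 genes with 1 symbol, and each was read from its brightest probe set, by the mean of the 12 arrays. They came from 82 probe sets, and 15 of the genes had only 1. All cells were C3H10T1/2, 1 mouse line of fibroblast-like embryonic cells that can be driven toward cartilage, bone or fat in culture. In the first experiment 3 arrays came from cells given siRNA-140, a short duplex that mimics miR-140, and 3 from cells given siRNA-96, a duplex for another microRNA used as its control. In the second, 3 arrays came from cells given anti-miR-140, an LNA (locked nucleic acid) oligonucleotide that blocks the cells' own miR-140, and 3 from cells given anti-miR-449, an LNA against another microRNA used as its control. The design asks which transcripts go down when miR-140 is raised and up when it is blocked. Both controls act on a microRNA of their own, so every difference below is between 2 active oligonucleotides.

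Collagens are secreted proteins whose chains wind around each other in a helix and then assemble outside the cell. Fibrillar collagens form the rope-like fibrils of skin, tendon, bone and cartilage, and other classes form the sheets of basement membranes, decorate fibrils, or span the cell membrane. miR-140 is a microRNA known for its high level in cartilage, the tissue whose fibrils are built of type II, IX and XI collagen. Microarrays of this kind do not measure the mature microRNA, so its level in these samples is not known from them.

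Values are log2 expression values, on which a difference of 1 is a ratio of 2. A probe set's value also depends on its probes, so levels are compared between arrays and not between genes. The arrays' medians lay between 3.95 and 4.02 in the siRNA experiment and between 4.32 and 4.38 in the anti-miR experiment, so levels are also not compared between the experiments. The number of arrays, 3 in each group, limits the precision. Nothing in the labels says that replicates were separate cultures, so a p-value here sets a difference against a spread that may be technical.

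In the siRNA experiment 2 arrays did not group with the others of their label. The leading principal component of the 6 arrays held 53.21% of the variance. On it, siRNA-140 replicate 1, siRNA-140 replicate 2 and siRNA-96 replicate 1 lay at -25.2, -34.2 and -33.1, and siRNA-140 replicate 3, siRNA-96 replicate 2 and siRNA-96 replicate 3 at 28.4, 32.4 and 31.7. The array labelled siRNA-140 replicate 3 was most like siRNA-96 replicate 2, and the array labelled siRNA-96 replicate 1 was most like siRNA-140 replicate 1. Vnn1, an enzyme gene, read 10.37, 10.51 and 5.52 in siRNA-140 arrays and 10.04, 5.66 and 5.27 in siRNA-96 arrays, the same division. It was picked to show this division with earlier results of these data known, so it is no separate evidence for it. Whether the labels of these arrays were exchanged cannot be told from the files, and every difference over the 6 arrays rests on the labels as given. Results of this experiment are therefore given with all 6 arrays, as labelled, and again with siRNA-140 replicate 3 and siRNA-96 replicate 1 left out. These 2 arrays were left out for the profile that is then compared, which includes collagen genes, so the p-values without them are too small and are no independent evidence.

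**Figure D1:**
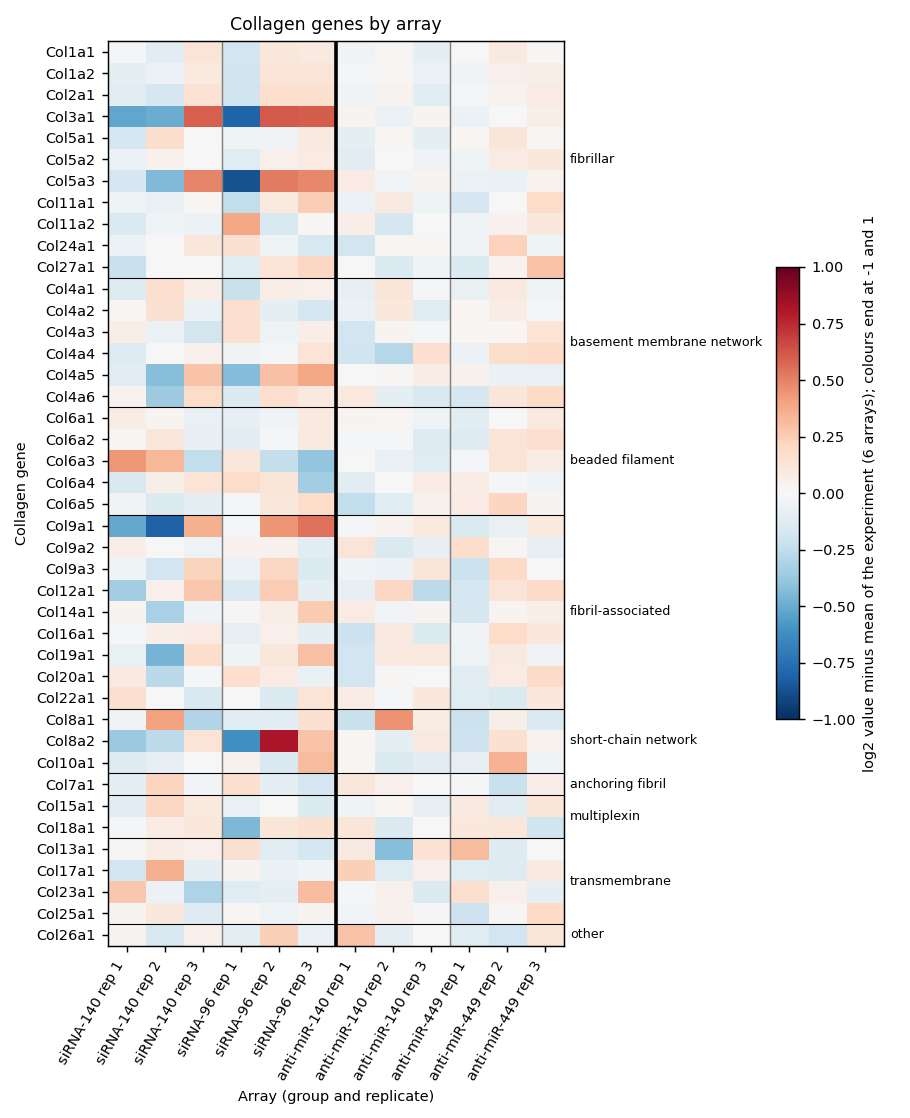
Each row is 1 of the 42 collagen genes, ordered by class, and each column 1 of the 12 arrays. Colour is the log2 value minus the mean of the same gene over the 6 arrays of its experiment, and the scale ends at -1 and 1. In the siRNA experiment Col3a1, Col5a3 and Col4a5 are pale or blue in 3 arrays and red in siRNA-140 replicate 3, siRNA-96 replicate 2 and siRNA-96 replicate 3, while the anti-miR arrays stay pale. Col8a2 is red in siRNA-96 replicate 2 but pale in siRNA-140 replicate 3.

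Of the 42 genes, 25 had a mean at or above the median of all probe sets, a share like that of all genes (11311 of 18193). The other 17 collagen genes lay below it, and 15 of the 42 lay above the upper quartile of every one of the 12 arrays. The share of all genes above that quartile is not given here, so the count of 15 is not read as high or low. Of the larger classes, the fibrillar class had the largest share at or above the median, 10 of its 11 genes. In the basement membrane class 3 of 6 genes reached the median, in the beaded filament class 3 of 5, in the fibril-associated class 5 of 9, and in the transmembrane class 1 of 4. None of the 3 short-chain network genes reached it, among them Col10a1, the collagen of growing cartilage that is about to be replaced by bone. The marker genes Col1a1, Col3a1 and Col2a1 were above the upper quartile of all 12 arrays.

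Besides Col2a1, the chain of the main cartilage fibril, the cells were checked against markers of several cell types, each set against its own array's quartiles. Of 8 chondrocyte markers 1, Sox9, a transcription factor that drives cartilage genes, was above the upper quartile of every array. It read 8.96, 9.17 and 9.22 in siRNA-140 arrays and 9.05, 9.27 and 9.49 in siRNA-96 arrays. The other markers included 5 that lay below the median of every array. Acan, the large proteoglycan of cartilage, was one of these, at 3.36, 3.51 and 3.59 in siRNA-140 arrays and 3.59, 3.61 and 3.59 in siRNA-96 arrays. Matn1, a cartilage matrix protein, was another, between 2.00 and 2.29 in all 12 arrays. Of the 7 listed osteoblast markers 4 were measured here, and 3 of these lay below the median of every array. Of 6 listed adipocyte markers 4 were measured here, and 1 of these was above the upper quartile of every array. Endothelial, epithelial and macrophage lists had 0 of 6, 0 of 7 and 0 of 6 genes above the upper quartile of every array.

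By their brightest probe sets, most fibrillar genes varied little over the siRNA arrays, while Col3a1 and Col5a3 varied widely. Second probe sets of Col1a1, Col1a2 and Col5a2 varied more, with ranges of 1.28, 0.65 and 0.71 over these arrays. Col1a1, a chain of type I collagen, the main fibril of bone and tendon, read 13.17, 13.08 and 13.32 in siRNA-140 arrays and 13.00, 13.31 and 13.28 in siRNA-96 arrays. Col1a2, the other type I chain, read 13.04, 13.07 and 13.23 in siRNA-140 arrays and 12.93, 13.26 and 13.26 in siRNA-96 arrays. Both chains were lowest in siRNA-96 replicate 1, and the groups overlapped. Col2a1 read 11.87, 11.80 and 12.12 in siRNA-140 arrays and 11.77, 12.14 and 12.13 in siRNA-96 arrays, again with 3 lower and 3 higher arrays that cross the labels. Col3a1, the type III chain that forms thin fibrils with type I collagen, read 11.40, 11.43 and 12.52 in siRNA-140 arrays and 11.12, 12.54 and 12.53 in siRNA-96 arrays. Here the gap was wide, about 1 log2 unit between the lower and the higher arrays, and 1 array of siRNA-96 lay below all of siRNA-140.

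By their brightest probe sets, the regulatory collagens of the fibril showed the same contrast between steady and moving members. Type V collagen sits inside type I fibrils and limits their width. Its chain Col5a1 read 9.68, 10.03 and 9.85 in siRNA-140 arrays and 9.81, 9.82 and 9.95 in siRNA-96 arrays. Its chain Col5a2 read 11.35, 11.45 and 11.41 in siRNA-140 arrays and 11.30, 11.46 and 11.49 in siRNA-96 arrays. Their ranges over the 6 siRNA arrays were 0.35 and 0.19, and the groups overlapped in both. A second Col5a2 probe set, with a range of 0.71, split these arrays as Col3a1 does. The third chain, Col5a3, read 5.83, 5.56 and 6.49 in siRNA-140 arrays and 5.13, 6.52 and 6.48 in siRNA-96 arrays, in the pattern of Col3a1. Col11a1, a chain of the cartilage fibril's type XI collagen, read 9.00, 8.97 and 9.06 in siRNA-140 arrays and 8.80, 9.14 and 9.29 in siRNA-96 arrays. Its groups overlapped, and its lowest array was siRNA-96 replicate 1.

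Among basement membrane chains, Col4a5 was low and high in the same arrays as Col3a1, while Col4a1 and Col4a2, which form the common type IV network, were not. Col4a5, a chain best known from the kidney filter, read 9.31, 8.99 and 9.70 in siRNA-140 arrays and 8.98, 9.71 and 9.80 in siRNA-96 arrays. Col4a1 read 11.17, 11.47 and 11.37 in siRNA-140 arrays and 11.08, 11.37 and 11.35 in siRNA-96 arrays. Col4a2 read 10.68, 10.81 and 10.59 in siRNA-140 arrays and 10.82, 10.56 and 10.48 in siRNA-96 arrays. Col4a2 thus ran the other way from Col4a5, with its highest values in the 3 arrays where Col4a5 was lowest.

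Type VI collagen forms beaded filaments around cells, and its Col6a3 chain, like Col4a2 but with a larger gap, ran opposite to Col3a1. Col6a3 read 11.24, 11.14 and 10.56 in siRNA-140 arrays and 10.92, 10.57 and 10.41 in siRNA-96 arrays. Its partners were steadier: Col6a1 read 10.69, 10.64 and 10.54 in siRNA-140 arrays and 10.53, 10.58 and 10.71 in siRNA-96 arrays. Col6a2 read 10.45, 10.55 and 10.36 in siRNA-140 arrays and 10.33, 10.42 and 10.53 in siRNA-96 arrays. The 3 chains assemble together in the protein, but only Col6a3 spread by more than 0.5 over the siRNA arrays.

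Of the fibril-associated collagens, Col9a1 differed most. It encodes a chain of type IX collagen, which lies on the surface of cartilage fibrils, and it read 4.80, 4.50 and 5.66 in siRNA-140 arrays and 5.29, 5.75 and 5.85 in siRNA-96 arrays. Another type IX chain, Col9a3, read 4.65, 4.50 and 4.91 in siRNA-140 arrays and 4.63, 4.90 and 4.55 in siRNA-96 arrays, with no such split. The third chain, Col9a2, was dim, at 2.84, 2.78 and 2.72 in siRNA-140 arrays and 2.82, 2.82 and 2.66 in siRNA-96 arrays. Col12a1, a collagen that links fibrils under strain, read 6.85, 7.25 and 7.47 in siRNA-140 arrays and 7.05, 7.45 and 7.11 in siRNA-96 arrays. Among dim genes, Col8a2, a chain of the short-chain collagen of the corneal basement membrane, read 2.83, 2.94 and 3.34 in siRNA-140 arrays and 2.59, 4.02 and 3.49 in siRNA-96 arrays, and Col10a1 read 3.63, 3.67 and 3.76 in siRNA-140 arrays and 3.80, 3.60 and 4.07 in siRNA-96 arrays. Both lay mostly below the median, where a probe set's value says little.

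**Figure D2:**
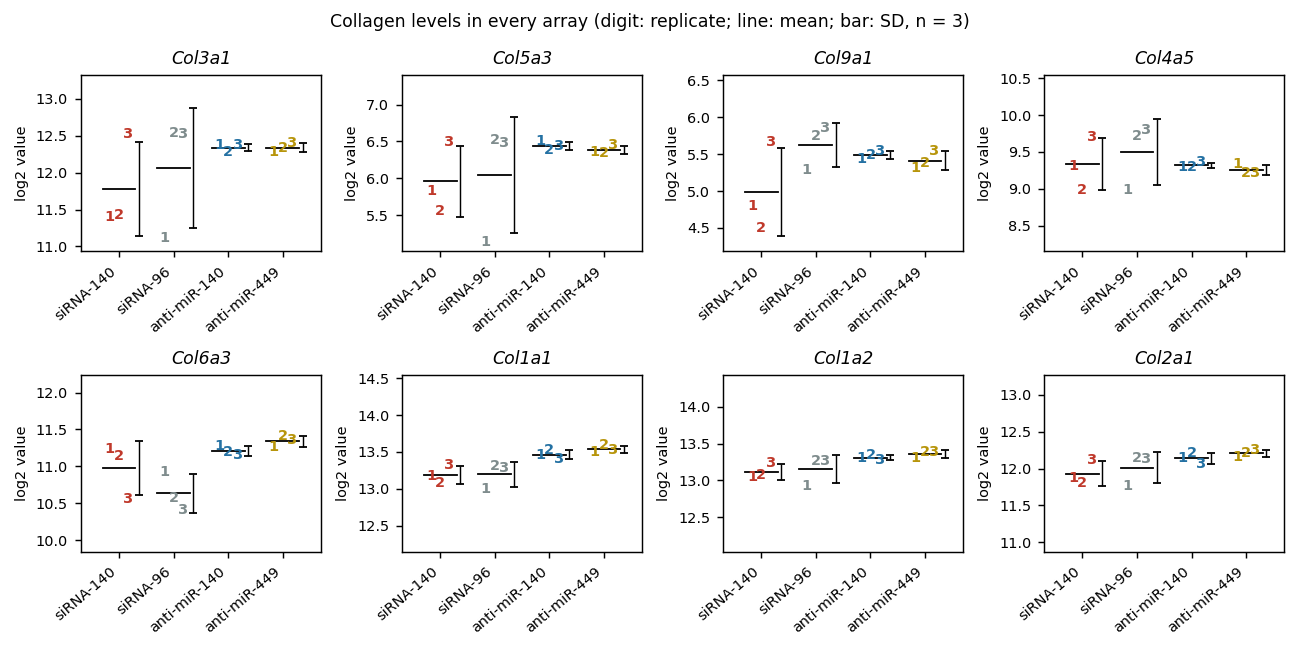
Each panel is 1 collagen gene, with the log2 value of every array on the vertical axis (2.4 log2 units high) and the 4 groups on the horizontal axis. Digits are replicate numbers, lines are group means and bars are the SD of 3 arrays. Col3a1 and Col5a3 are high in siRNA-140 replicate 3, siRNA-96 replicate 2 and siRNA-96 replicate 3, and low in the other siRNA arrays; Col6a3 runs the other way and Col1a1 hardly moves.

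With all arrays as labelled, no collagen gene passed the test between siRNA-140 and siRNA-96. limma called 0 of 42 collagen genes at an adjusted p under 0.05, against 0% of 18193 genes and 0 of 45037 probe sets. At an unadjusted p under 0.05 it also called 0 of 42 collagen genes, against 1.08% of genes higher and 0.896% lower. The differences were positive for 17 and negative for 25 of the 42 genes, with a median of -0.01 log2 units, beside 0.03 over all genes. Over all 18193 genes, 10368 were positive and 7650 negative. Of the 11 fibrillar genes 10 had a negative difference, with a median of -0.07 over the 11. Some of these lay near 0: Col1a1, Col5a1 and Col5a2, at -0.007, -0.007 and -0.013, changed sign under some of the alternative settings. Col1a2, Col11a1 and Col5a3, at -0.037, -0.067 and -0.083, also changed sign under some. So did Col24a1, the fibrillar gene with a positive difference. The smallest p belonged to Col9a1, at -0.64 ± 0.28 (SE, unadjusted p = 0.0519, limma adjusted p = 0.997), with an interval of -1.29 to 0.01.

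These limits differ greatly between the genes. For Col1a1 the difference was -0.01 ± 0.13, and its 95% interval ran from -0.30 to 0.28. For Col3a1 it was -0.28 ± 0.42, with an interval of -1.25 to 0.69, so that a change by more than 1 log2 unit downward lay inside it. Col5a3 (-0.08 ± 0.38) and Col6a3 (0.35 ± 0.20) were also loosely bounded. In all, 32 of the 42 intervals lay within 0.5 log2 units of 0, beside 13408 of those of all 18193 genes. The groups did not overlap for 1 of the 42 genes, Col6a5, which was lower in siRNA-140 arrays, against 2.49% of all genes lower, 3.31% higher and 5.8% either way. Col6a5 is a dim type VI chain that read 1.80, 1.69 and 1.75 in siRNA-140 arrays and 1.82, 1.95 and 2.02 in siRNA-96 arrays.

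**Figure D3:**
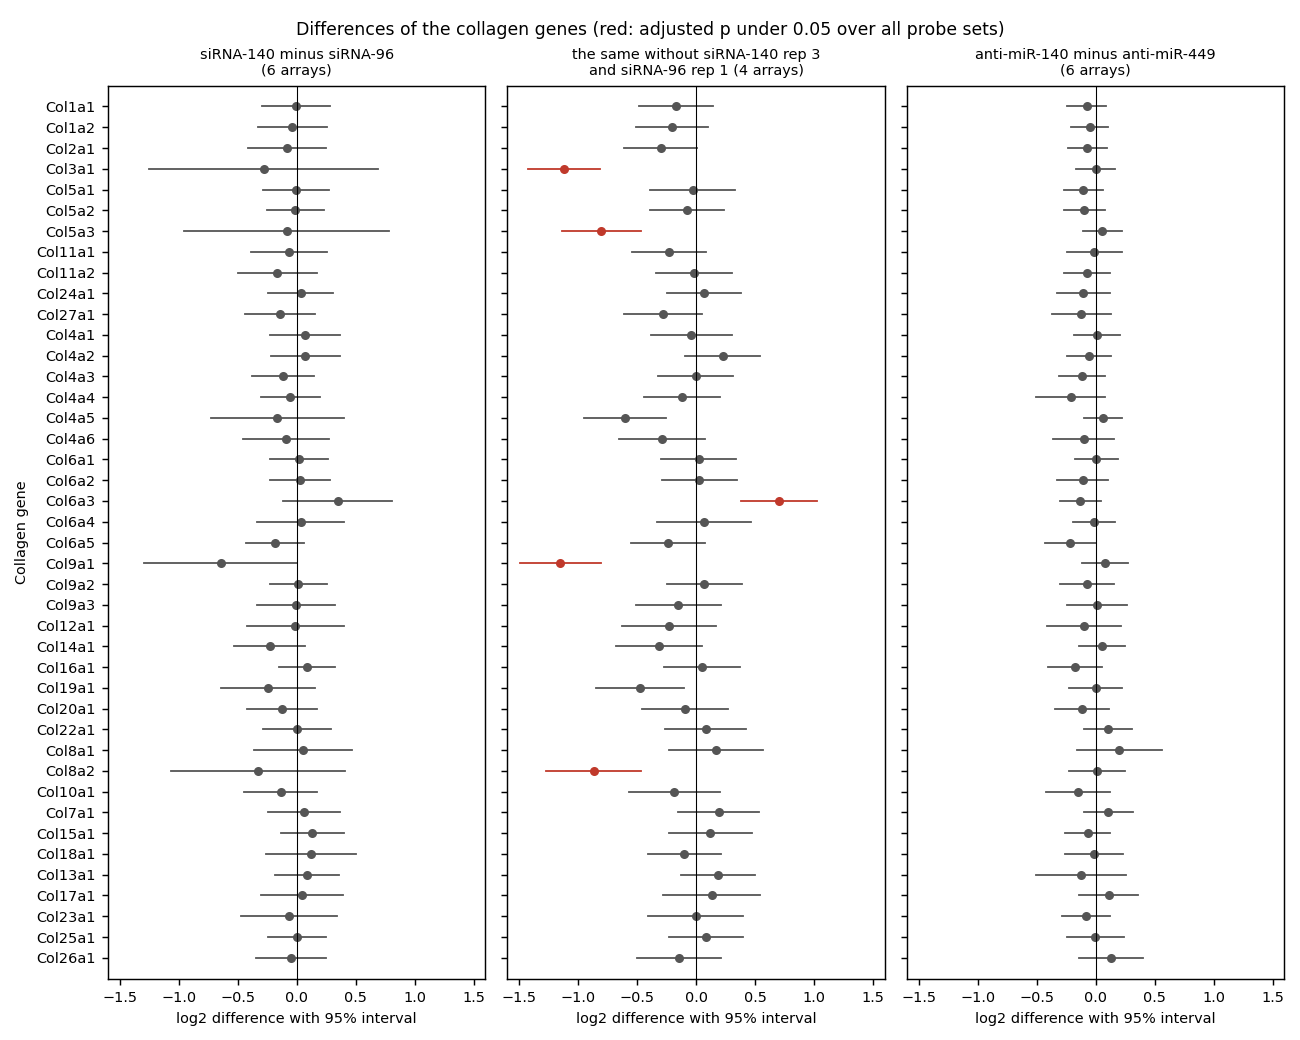
Points are log2 differences of the 42 collagen genes with their 95% intervals from limma, for siRNA-140 minus siRNA-96 over 6 arrays (left), over the 4 arrays that remain when siRNA-140 replicate 3 and siRNA-96 replicate 1 are left out (middle), and for anti-miR-140 minus anti-miR-449 over 6 arrays (right). Red marks an adjusted p under 0.05, which 5 genes reach in the middle panel and 0 in the other panels.

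With siRNA-140 replicate 3 and siRNA-96 replicate 1 left out, 4 collagen genes were lower and 1 was higher with siRNA-140. limma on the remaining 4 arrays called 4 of 42 lower (9.52%, against 2.39% of all genes) and 1 higher (2.38%, against 2.45%). Col3a1 fell by 1.12 ± 0.14 log2 units (adjusted p = 0.00153). Col9a1 fell by 1.15 ± 0.16 (adjusted p = 0.00269), Col5a3 by 0.81 ± 0.15 (adjusted p = 0.0156) and Col8a2, a dim gene, by 0.87 ± 0.18 (adjusted p = 0.0267). Col6a3 rose by 0.70 ± 0.15 (adjusted p = 0.0249). Col4a5 had a difference of -0.61 and an adjusted p of 0.0665, and with the anti-miR arrays added to the fit to share their spread (10 arrays) it passed at 0.00591. That fit called 6 of 42 collagen genes (14.3%) against 11.1% of all genes, 5 of them lower against 4.85% and 1 higher against 6.27%. The anti-miR arrays spread less than the siRNA arrays, so p-values with 10 arrays, here and below, rest partly on another experiment's spread. The median SE over all genes was 0.126 with 10 arrays and 0.151 with 4. The other 37 genes did not pass with 4 arrays, among them Col1a1 at -0.17, Col2a1 at -0.30 (interval -0.61 to 0.01) and Col6a1 at 0.02.

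Second probe sets of the same genes bear on this, since they share the RNA but not the probes. The second Col3a1 probe set read 8.42, 8.16 and 9.63 in siRNA-140 arrays and 7.88, 9.69 and 9.74 in siRNA-96 arrays, and without the 2 arrays it differed by -1.43 ± 0.15 (limma adjusted p = 0.000603). The second Col9a1 probe set read 3.91, 3.75 and 6.37 in siRNA-140 arrays and 4.15, 6.79 and 6.79 in siRNA-96 arrays. Without the 2 arrays it was lower with siRNA-140 (limma adjusted p = 4.43e-06), as the main Col9a1 probe set was. No fold is given, since 3.91 and 3.75 lie below the medians of their arrays. For Col1a1 they did not order the arrays alike: the second probe set read 11.22, 10.90 and 11.56 in siRNA-140 arrays and 11.68, 11.40 and 12.18 in siRNA-96 arrays, with the low and high arrays of Col3a1 intermixed and a difference of -0.53 ± 0.23 (unadjusted p = 0.0468, limma adjusted p = 0.997). Without the 2 arrays its difference was -0.73, with a limma adjusted p of 0.137 on 4 arrays and 0.0363 on 10. The second Col1a2 probe set did split as Col3a1 does, at 12.08, 12.05 and 12.48 in siRNA-140 arrays and 12.20, 12.52 and 12.70 in siRNA-96 arrays. Without the 2 arrays it differed by -0.55, with a limma adjusted p of 0.0718 on 4 arrays and 0.0058 on 10. The second Col5a3 probe set, which is dim, read 2.39, 2.59 and 2.43 in siRNA-140 arrays and 2.62, 2.36 and 2.59 in siRNA-96 arrays. Without the 2 arrays it differed by 0.015 (limma adjusted p = 0.984 on 4 arrays), so it did not repeat the main Col5a3 difference. Col6a3 and Col8a2 had only 1 probe set each.

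Other genes split the siRNA arrays in the same way, and in bulk RNA fewer cells of a type cannot be told apart from less RNA per cell. Of a list of 27 measured interferon response genes, 25 were lower with siRNA-140 in the 4-array fit, against 2.39% of all genes. The 2 arrays were left out for a division that these genes also follow, and the list was chosen with earlier results known. Counts in that fit are therefore no separate evidence for the division. The mean level of the list was 4.63, 4.77 and 6.17 in siRNA-140 arrays and 4.77, 7.06 and 7.48 in siRNA-96 arrays, so that the higher arrays are those in which Col3a1 was high. Usp18, an interferon-induced enzyme gene, read 3.85, 4.67 and 8.01 in siRNA-140 arrays and 4.65, 8.92 and 9.30 in siRNA-96 arrays. Of 8 smooth muscle markers 3, Acta2, Actg2 and Myl9, were lower in that fit and 5 did not pass. The mean level of the list was 5.16, 5.24 and 5.87 in siRNA-140 arrays and 5.23, 5.88 and 5.93 in siRNA-96 arrays. Their summed level ranged from 41.3 to 46.99 in siRNA-140 arrays and from 41.86 to 47.4 in siRNA-96 arrays, and 2 of the 8 were below the median of every array. In the same fit 1 of 8 chondrocyte markers was lower, 1 of 4 adipocyte and 1 of 6 endothelial markers were higher, and 0 osteoblast, epithelial or macrophage markers passed. The part of these genes in the collagen differences was not tested. The mean of the 3 probe sets for 18S ribosomal RNA did not follow the split: it was 10.5 in siRNA-96 replicate 1 and between 5.40 and 7.86 in the other siRNA arrays.

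By the brightest probe sets, the spread of the collagen genes over the siRNA arrays was close to that of other genes. The exceptions were the few genes that followed the split. Second probe sets of Col1a2, Col5a2, Col12a1 and Col27a1 followed it too. The range over the 6 siRNA arrays was above 0.5 for 16 of 42 genes (38.1%), against 35% of all genes. In the anti-miR arrays this held for 2 of 42 (4.76%), against 9.82% of all genes. Col3a1 had a range of 1.42 over the siRNA arrays and 0.12 over the anti-miR arrays, a ratio of 11.8. For Col5a3 these ranges were 1.39 and 0.15, for Col9a1 1.35 and 0.24, and for Col6a3 0.83 and 0.26. Col1a1 spread by 0.32 and 0.19.

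**Figure D4:**
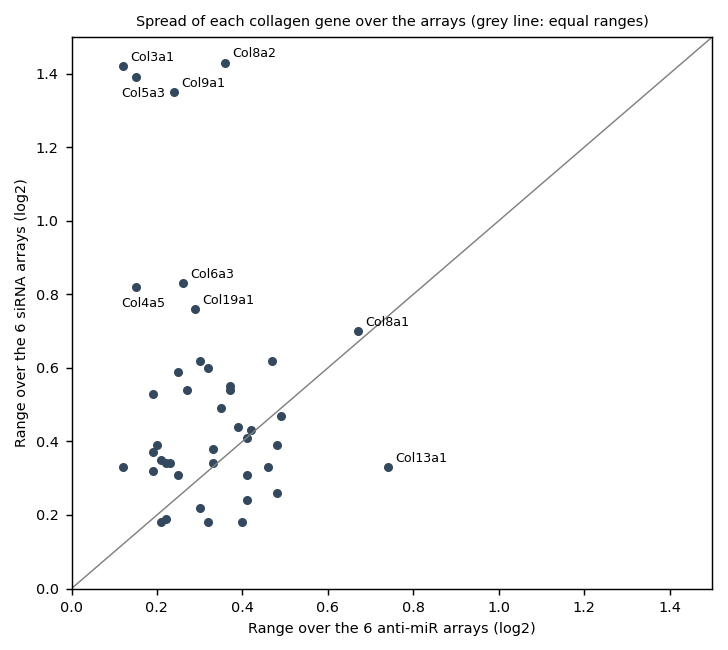
Each point is 1 of the 42 collagen genes, with its range over the 6 anti-miR arrays on the horizontal axis and over the 6 siRNA arrays on the vertical axis, both in log2 units. Col3a1, Col5a3, Col9a1 and Col8a2 lie above 1.3 in the siRNA arrays and below 0.4 in the anti-miR arrays; the grey line marks equal ranges.

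With miR-140 blocked, no collagen gene passed the test against the control. limma called 0 of 42 collagen genes at an adjusted p under 0.05 between anti-miR-140 and anti-miR-449, against 0% of 18193 genes and 0 probe sets. At an unadjusted p under 0.05 it called 1, the dim Col6a5, at -0.22 ± 0.09 (unadjusted p = 0.0499, adjusted p = 0.974), against 2.15% of genes lower and 1.32% higher. Differences were positive for 13 genes, negative for 27 and exactly 0 for 2, with a median of -0.06, beside -0.00333 over all genes. Over all genes, 8621 were positive, 9247 negative and 325 exactly 0. For all 25 genes at or above the median the 95% interval lay within 0.5 log2 units of 0, the widest reaching 0.412. The interval also lay within 0.5 for 11127 of all 11311 genes at or above the median. Dim genes included, it did so for 39 of the 42 collagen genes, beside 17555 of all 18193 genes. The groups overlapped for all 42 genes, against 7.72% of all genes with no overlap, 4.42% lower and 3.29% higher.

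The individual arrays show how close the groups lay. Col1a1 read 13.46, 13.52 and 13.40 in anti-miR-140 arrays and 13.50, 13.59 and 13.52 in anti-miR-449 arrays, a difference of -0.08 ± 0.07. Col3a1 read 12.37, 12.28 and 12.37 in anti-miR-140 arrays and 12.28, 12.34 and 12.40 in anti-miR-449 arrays, a difference of 0.00 ± 0.07 with an interval of -0.16 to 0.16. A gene with one of the widest spreads over the siRNA arrays thus had one of the narrowest here. Col2a1 read 12.14, 12.21 and 12.06 in anti-miR-140 arrays and 12.16, 12.21 and 12.25 in anti-miR-449 arrays, a difference of -0.07 ± 0.07. Col9a1 read 5.44, 5.49 and 5.55 in anti-miR-140 arrays and 5.31, 5.38 and 5.55 in anti-miR-449 arrays, a difference of 0.08 ± 0.08. Col6a3 read 11.28, 11.20 and 11.15 in anti-miR-140 arrays and 11.26, 11.41 and 11.35 in anti-miR-449 arrays, a difference of -0.13 ± 0.08. None of these passed, and in each gene the groups overlapped. The 9 fibrillar genes with a negative difference included Col5a1 at -0.10 ± 0.07 and Col5a2 at -0.10 ± 0.08, and Col16a1, a fibril-associated chain, was at -0.17 ± 0.10.

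The contrast of the 2 experiments, which is the siRNA difference minus the anti-miR difference and so also departs from 0 where a gene differs in 1 experiment only, called 0 of 42 collagen genes, against 0% of genes. At an unadjusted p under 0.05 limma called 1, Col9a1, at -0.72 ± 0.32 (unadjusted p = 0.0424, adjusted p = 0.997), against 0.835% of genes lower and 1.51% higher. Most of it was the siRNA difference of -0.64, beside 0.08 ± 0.08 in the anti-miR experiment. Col6a3 stood at 0.48 ± 0.23 (unadjusted p = 0.0592). For Col3a1 the contrast was -0.28 ± 0.47, with an interval of -1.30 to 0.74.

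Genes that process, bind or induce collagen were called in neither main comparison by limma. The lists were those of folding in the endoplasmic reticulum (20 of 21 measured), propeptide removal and cross-linking (10 of 13), fibril partners (12 of 12), receptors (9 of 10), proteases and their inhibitors (10 of 10), and inducers (13 of 14). In the anti-miR experiment the smallest unadjusted p among them were those of 2 small proteoglycans that bind collagen fibrils. Dcn read 6.56, 6.55 and 6.47 in anti-miR-140 arrays and 6.70, 6.77 and 6.83 in anti-miR-449 arrays, a difference of -0.24 ± 0.07 (unadjusted p = 0.00971, limma adjusted p = 0.974). Lum, which is dim, read 2.93, 3.07 and 3.03 in anti-miR-140 arrays and 3.15, 3.37 and 3.29 in anti-miR-449 arrays. In both, no array of one group reached the other, but neither passed. Of the 74 measured pathway genes 5 had such groups (6.76%, against 7.72% of all genes), with Dcn, Lum and Fmod lower and Fbln1 and P3h2 higher in anti-miR-140 arrays.

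Without the 2 siRNA arrays, some of these genes passed in the 4-array fit, where 4.83% of all genes were called. Of 12 fibril partners 3 were lower with siRNA-140: Postn, a matrix protein of healing tissue, by 3.72 log2 units, Ogn by 1.24 and Fmod, a proteoglycan that spaces fibrils, by 0.75. Of 13 inducers 3 were lower, Tgfb2, Tgfb3 and Ccn2, and 1 was higher, Tgfbr2, the receptor for TGF-beta ligands. Tgfb2 read 5.75, 5.61 and 7.68 in siRNA-140 arrays and 5.12, 7.71 and 7.40 in siRNA-96 arrays. Tgfb2, Tgfb3 and Ccn2 were low where Col3a1 was low. The ligand gene Tgfb1 did not follow them: it read 5.83, 5.90 and 5.43 in siRNA-140 arrays and 5.54, 5.43 and 5.20 in siRNA-96 arrays, with a difference of 0.55 and an adjusted p of 0.0778 in the 4-array fit and 0.00579 in the 10-array fit. Of the 10 cross-linking genes 1, Loxl4, a lysyl oxidase, was higher, by 1.03 ± 0.15 (limma adjusted p = 0.00471), and of the 20 folding genes 1, Plod2, which hydroxylates lysines of collagen, was higher by 0.66 ± 0.14 (limma adjusted p = 0.0322). Of the 9 receptors 1, the integrin Itgb1, was higher, by 0.63, and of the 10 proteases 0 passed.

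**Figure D5:**
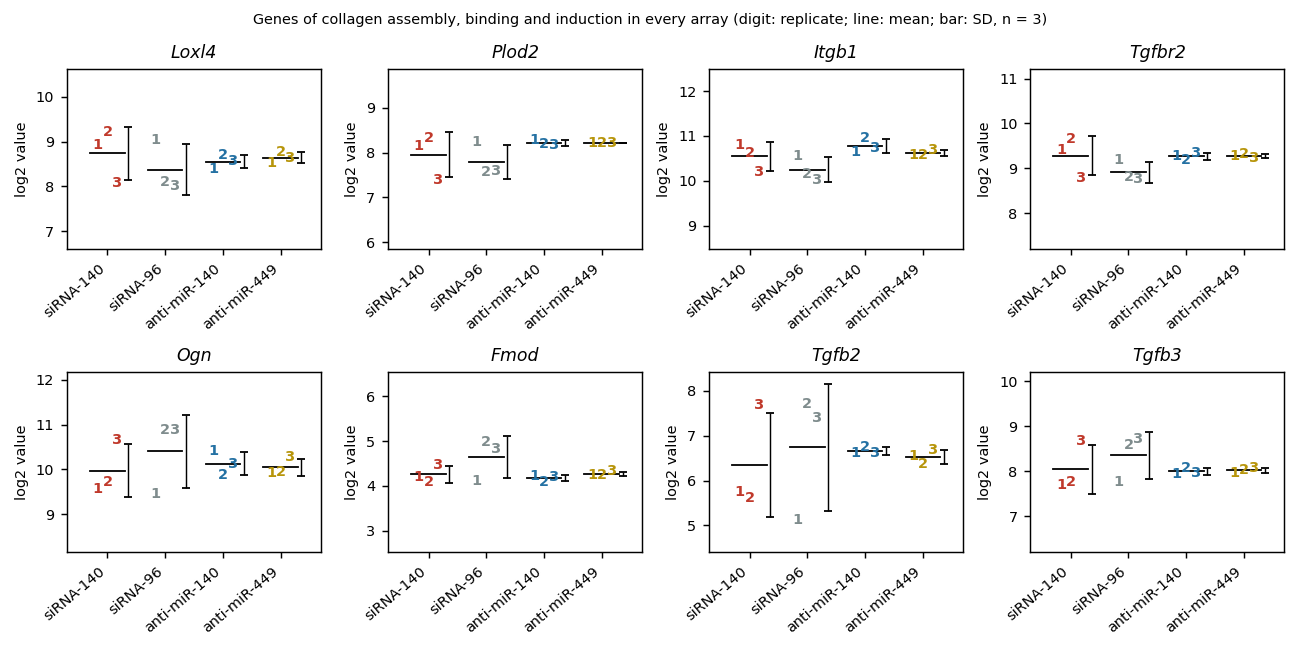
Each panel is 1 gene of collagen processing, binding or induction, with the log2 value of every array on the vertical axis (4 log2 units high) and the groups on the horizontal axis. Digits are replicate numbers, lines are means and bars are the SD of 3 arrays. Loxl4, Plod2 and Tgfbr2 are high and Ogn, Tgfb2 and Tgfb3 low in siRNA-140 replicate 1, siRNA-140 replicate 2 and siRNA-96 replicate 1, and the anti-miR groups lie close together.

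Promoters are shown for the genes called without the 2 arrays, to set their start regions side by side, and for the type IV pair, which shares one stretch. Sequences are from RefSeq (GRCm38.p6), printed 5′ to 3′ on the gene's strand from 250 bases before the annotated start to 50 after it, with the start counted as 0. Of the collagen genes 33 had a promoter entry, 36 windows in all, which were compared with 32851 windows. Both strands were searched for 6 short motifs, spelled out with their counts after the sequences. Letters of a motif are in capitals, and a match is only these letters.
Col3a1, chr1:45311288-45311587: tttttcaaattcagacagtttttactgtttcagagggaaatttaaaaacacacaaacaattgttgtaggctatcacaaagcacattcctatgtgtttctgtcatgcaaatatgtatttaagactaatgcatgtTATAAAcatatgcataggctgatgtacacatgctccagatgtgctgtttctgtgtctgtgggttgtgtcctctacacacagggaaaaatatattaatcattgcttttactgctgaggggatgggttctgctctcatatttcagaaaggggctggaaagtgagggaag
Col5a3, chr9:20815018-20815317: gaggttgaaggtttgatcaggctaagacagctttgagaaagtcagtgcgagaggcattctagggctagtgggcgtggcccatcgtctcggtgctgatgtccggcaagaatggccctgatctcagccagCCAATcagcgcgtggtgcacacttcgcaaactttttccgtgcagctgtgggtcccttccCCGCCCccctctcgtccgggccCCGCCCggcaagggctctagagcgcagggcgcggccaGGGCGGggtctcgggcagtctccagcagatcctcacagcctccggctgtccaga
Col8a2, chr4:126286544-126286843: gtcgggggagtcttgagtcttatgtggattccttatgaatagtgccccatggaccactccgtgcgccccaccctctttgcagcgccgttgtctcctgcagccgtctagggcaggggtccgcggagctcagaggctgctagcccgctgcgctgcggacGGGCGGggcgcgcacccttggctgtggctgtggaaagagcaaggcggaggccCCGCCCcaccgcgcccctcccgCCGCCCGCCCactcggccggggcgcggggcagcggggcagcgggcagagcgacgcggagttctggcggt
Col9a1, first promoter, chr1:24177360-24177659: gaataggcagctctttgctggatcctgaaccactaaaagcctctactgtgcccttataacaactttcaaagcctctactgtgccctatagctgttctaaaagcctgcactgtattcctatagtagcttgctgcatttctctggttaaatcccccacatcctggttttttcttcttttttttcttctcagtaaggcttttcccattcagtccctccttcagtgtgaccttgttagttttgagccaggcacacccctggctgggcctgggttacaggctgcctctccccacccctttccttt
Col9a1, second promoter, chr1:24194953-24195252: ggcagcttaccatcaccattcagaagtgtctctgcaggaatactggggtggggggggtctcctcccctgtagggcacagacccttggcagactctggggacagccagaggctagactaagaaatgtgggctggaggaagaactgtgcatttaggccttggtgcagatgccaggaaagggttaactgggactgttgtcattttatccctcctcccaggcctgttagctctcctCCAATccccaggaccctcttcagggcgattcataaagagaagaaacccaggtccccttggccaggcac
Col6a3, chr1:90843922-90844221: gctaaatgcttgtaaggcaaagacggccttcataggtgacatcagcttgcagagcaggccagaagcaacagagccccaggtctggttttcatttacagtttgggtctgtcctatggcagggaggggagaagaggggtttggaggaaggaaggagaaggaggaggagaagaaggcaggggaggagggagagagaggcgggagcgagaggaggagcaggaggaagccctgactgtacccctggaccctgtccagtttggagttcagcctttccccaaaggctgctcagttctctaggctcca

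No motif was in the windows of all these genes. Col3a1 held the TATA motif, TATAAA, at -117 and no GC box (GGGCGG), while Col5a3 held 3 GC boxes and a CCAAT at -122. Col8a2 held 4 GC boxes, 2 of which overlap, and the second Col9a1 window held a CCAAT at -18. The first Col9a1 window and the Col6a3 window held none of the 6 motifs. Over all collagen windows the GC box was in 61.1%, against 35.7% of all windows, the TATA motif in 13.9%, against 13.6%, and the CCAAT motif in 36.1%, against 37.4%. The STAT motif, TTCNNNGAA, was in 2.78% of collagen windows, the one of Col6a5, against 8.3% of all. The interferon motif, a pair of GAAA blocks 2 bases apart, was in 0 collagen windows, against 3.44% of all. The SMAD motif, GTCTAGAC, was also in 0, against 0.213% of all.

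Col4a1 and Col4a2 lie head to head, with annotated starts 21 bases apart, and their windows share 78 bases (chr8:11312777-11312854), in capitals here.
Col4a2, chr8:11312555-11312854: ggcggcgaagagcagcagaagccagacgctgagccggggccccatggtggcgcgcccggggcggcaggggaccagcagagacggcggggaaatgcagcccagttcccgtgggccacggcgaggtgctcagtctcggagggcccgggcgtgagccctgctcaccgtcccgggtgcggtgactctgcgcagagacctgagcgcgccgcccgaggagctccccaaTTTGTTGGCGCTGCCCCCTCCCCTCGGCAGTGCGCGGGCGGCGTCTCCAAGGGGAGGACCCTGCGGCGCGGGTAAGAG
Neither gene of the pair passed in any comparison. Col4a1 differed by 0.07 ± 0.13 and Col4a2 by 0.07 ± 0.13 between siRNA-140 and siRNA-96, and without the 2 arrays by -0.04 and 0.23. Between anti-miR-140 and anti-miR-449 they differed by 0.01 ± 0.08 and -0.06 ± 0.08.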

How the data were processed

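RNA of 12 samples was measured on Affymetrix arrays. The deposited log2 values were made by the authors with RMA, a method that subtracts background, equalises the arrays' distributions and combines the probes of each set, per the submitters' processing notes. Its version, and whether both experiments were normalized together, are not given in the sources used here. Of the probe sets, 64 array controls were left out and 45037 tested, with no filter on level. Symbols came from the platform annotation, and all 42 collagen symbols matched a RefSeq gene ID. Col6a6 and Col28a1 were not analysed here.

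Each experiment was fitted alone with limma 3.58.1 in R 4.3.3 (lmFit and eBayes, 2 group means over 6 arrays), since quartiles and spread differed between the experiments. The contrast of both differences used all 12 arrays. A call means p under 0.05 after Benjamini-Hochberg adjustment over all probe sets, with 95% intervals. The fits were tested on simulated data. No array repeated another's values. The alternatives were all 12 arrays in 1 fit, a replicate block, further quantile normalization, median centring, a filter on dim probe sets, each array left out, array weights, robust variances with an intensity trend, an unadjusted p, and the mean of a gene's probe sets. The fits without 2 arrays were added after seeing the data, and the one on 10 arrays pools the spread of both experiments.

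Collagen members and all gene lists were chosen with earlier results of these data known, and list membership is approximate. Values in every array are given for the markers, the main partner chains and members with the smallest p, and for pathway genes that passed or had the smallest p.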

Additional observations from a re-analysis of the deposited data

How the results depend on the processing

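The count of 0 collagen genes and 0 probe sets at an adjusted p under 0.05 held in all 3 comparisons under most alternatives. Leaving out single arrays gave 0 collagen genes in each comparison and 0 probe sets in each experiment, and 0 to 1 probe sets in the contrast of the experiments, the 1 without siRNA-96 replicate 1. The median collagen difference then ranged from -0.07 to 0.00417 for siRNA-140 minus siRNA-96, from -0.08 to -0.03 for anti-miR-140 minus anti-miR-449, and from -0.03 to 0.05 for the contrast. With siRNA-140 replicate 3 and siRNA-96 replicate 1 left out, an alternative chosen after seeing the data, 1743 probe sets, 5 collagen genes and a median of -0.085 came from 4 arrays, and 4043 probe sets, 6 collagen genes and a median of -0.085 from 10 arrays. With an unadjusted p under 0.05, the calls were 1014 probe sets and 0 collagen genes in the siRNA experiment, 2148 and 1 in the anti-miR experiment, and 1322 and 1 in the contrast. Deviations of same-numbered arrays correlated at 0.41, -0.24 and 0.44 in the siRNA experiment, where differently numbered arrays ran from -0.68 to 0.49. Whether replicate numbers pair the siRNA samples cannot be told from this, since 2 arrays did not group with their label. In the anti-miR experiment same-numbered arrays correlated at -0.01, 0.10 and -0.03, and differently numbered ones ran from -0.07 to 0.09, so no pairing was seen there. The replicate block gave 0 collagen genes in each comparison and a median of -0.01 for siRNA-140 minus siRNA-96. No collagen gene was called in the 3 main comparisons, so no called difference could change sign there. Differences that passed no test changed sign for up to 11 of 42 genes under 1 setting. Depth is not defined for arrays, and dim probe sets, 17 of the 42 genes, limit what can be read.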

Other observations

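Second probe sets of other collagen genes add a few values. In the anti-miR experiment a dim second Col14a1 probe set, for a collagen that coats fibrils, differed by -0.29 ± 0.08 between anti-miR-140 and anti-miR-449 (limma unadjusted p = 0.0059, adjusted p = 0.974). The main Col14a1 probe set differed by 0.05 ± 0.08. A dim second Col23a1 probe set differed the other way, by 0.20 ± 0.07 (limma unadjusted p = 0.0266, adjusted p = 0.974). For a second Col27a1 probe set the difference was -0.23 ± 0.10 (limma unadjusted p = 0.0488, adjusted p = 0.974). This Col27a1 probe set split the siRNA arrays as Col3a1 does. Without the 2 siRNA arrays it differed by -0.605 between siRNA-140 and siRNA-96 (limma adjusted p = 0.0728 on 4 arrays, 0.0164 on 10). A second Col12a1 probe set read 6.46, 6.81 and 7.51 in siRNA-140 arrays and 6.08, 7.41 and 7.12 in siRNA-96 arrays. It also split as Col3a1 does, at -0.63 without the 2 siRNA arrays (limma adjusted p = 0.0792 on 4 arrays, 0.0105 on 10). A second Col5a2 probe set read 9.15, 9.07 and 9.45 in siRNA-140 arrays and 8.83, 9.54 and 9.51 in siRNA-96 arrays, a wider spread than that of the main Col5a2 probe set. It too split as Col3a1 does, at -0.415 without the 2 siRNA arrays (limma adjusted p = 0.166 on 4 arrays, 0.0279 on 10). The second Col4a5 probe set did so as well, at -0.49 (limma adjusted p = 0.104 on 4 arrays, 0.00872 on 10). A second Col5a1 probe set went the other way, at 0.345 (limma adjusted p = 0.316 on 4 arrays, 0.0963 on 10). Serpinh1, the chaperone that collagen chains need to fold, read 11.27, 11.42 and 11.49 in siRNA-140 arrays and 11.51, 11.51 and 11.69 in siRNA-96 arrays, and it passed in no fit.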
